A study of Mus musculus with 2 samples.

Results

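Inhibitory checkpoint receptors were followed in single leukocytes of B16 melanomas from mice with or without a floxed Nrp1 gene. They are 8 of the 27998 genes in the count matrices and were taken by symbol: Pdcd1, Lag3, Havcr2, Ctla4, Tigit, Cd160, Entpd1 and Cd200r1, all of which were found once in both libraries. The first library came from Nrp1L/LFoxp3Cre-YFP mice, called Nrp1L/L here, and the other from Foxp3Cre-YFP mice, called control. Mice of both genotypes carry Cre recombinase and a yellow fluorescent protein driven by Foxp3, the gene that defines regulatory T cells, so the deletion is aimed at those cells. Both groups were C57BL/6 females aged 5 weeks, and CD45+ cells were sorted from the tumours on day 14. B16 is a transplanted mouse melanoma line and CD45 marks leukocytes. There was 1 library per genotype, made from 2600 loaded cells, and the labels do not say how many mice were pooled. The genotype and the single library that carries it cannot be told apart, so no p-value is given, and every interval is a 95% interval for counting error only.

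The receptors dampen activated lymphocytes. PD-1 (Pdcd1) and TIGIT recruit phosphatases through cytoplasmic tyrosine motifs, CTLA-4 competes with CD28 for B7 ligands, LAG-3 binds MHC class II, and TIM-3 (Havcr2) binds galectin-9 among other ligands. CD160 binds HVEM, CD39 (Entpd1) is an ectoenzyme that starts the conversion of extracellular ATP toward adenosine, and CD200R1 receives CD200 and is best known from myeloid cells. Several of them on 1 CD8 T cell are a hallmark of exhaustion under lasting antigen, while single receptors also appear on recently activated cells, and CTLA-4 is a constant feature of regulatory T cells.

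Promoters of 3 receptors whose levels set the libraries or cell types apart below are shown as context, from RefSeq on GRCm38.p6, each running 5′ to 3′ over the 250 bases before and the 50 bases from the transcript start. They are chr1:94052504-94052803 on the minus strand for Pdcd1, chr11:46454681-46454980 on the plus strand for Havcr2 and chr1:60908775-60909074 on the plus strand for Ctla4. Capitals mark matches, on either strand, to the NFAT core GGAAA. They also mark matches to the AP-1 motif TGANTCA.
Pdcd1: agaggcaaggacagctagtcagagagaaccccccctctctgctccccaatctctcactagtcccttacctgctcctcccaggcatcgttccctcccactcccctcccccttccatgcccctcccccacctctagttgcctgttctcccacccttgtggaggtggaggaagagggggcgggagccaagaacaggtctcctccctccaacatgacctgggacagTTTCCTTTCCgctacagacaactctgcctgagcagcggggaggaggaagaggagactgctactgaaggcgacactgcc
Havcr2: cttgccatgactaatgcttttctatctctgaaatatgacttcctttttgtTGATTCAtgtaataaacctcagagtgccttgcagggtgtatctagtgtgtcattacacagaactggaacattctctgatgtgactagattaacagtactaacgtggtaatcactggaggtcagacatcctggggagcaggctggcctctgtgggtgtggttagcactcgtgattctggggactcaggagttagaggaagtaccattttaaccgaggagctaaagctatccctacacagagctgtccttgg
Ctla4: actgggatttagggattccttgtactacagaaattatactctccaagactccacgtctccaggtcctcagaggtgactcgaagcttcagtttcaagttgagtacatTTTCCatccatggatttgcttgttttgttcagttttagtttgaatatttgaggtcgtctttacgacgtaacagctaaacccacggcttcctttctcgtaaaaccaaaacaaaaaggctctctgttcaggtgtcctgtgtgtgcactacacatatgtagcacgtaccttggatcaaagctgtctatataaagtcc

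The Pdcd1 window held 2 NFAT cores, at bases -28 and -23 from the start, the Ctla4 window held 1 at -144, and the Havcr2 window held 1 AP-1 match at -200. Of 32851 promoters of this length, 61.3% held GGAAA and 7.81% held TGANTCA, so the NFAT core is a common string and the AP-1 match a less common one. The TATA string TATAAA, in 13.6% of promoters, was in the Ctla4 window at base 41 after the start and in no other of the windows shown. An interferon response element, in 3.44% of promoters, was in none of the windows of the 6 receptors in the sequence table (Cd160 and Entpd1 with 2 starts each). These are letter matches only. By the GENCODE annotation of GRCm38, which is the same assembly as mm10, the protein-coding genes lie on chromosome 1 for Pdcd1 (94038305 to 94052553, minus strand) and Ctla4 (60887000 to 60915832, plus strand), on chromosome 6 for Lag3 (124904361 to 124911705, minus strand), on chromosome 11 for Havcr2 (46454935 to 46481255, plus strand) and on chromosome 16 for Tigit (43648867 to 43664146, minus strand) and Cd200r1 (44765736 to 44794978, plus strand). Cd160 is on chromosome 3 (96798763 to 96829351, minus strand) and Entpd1 on chromosome 19 (40612366 to 40741602, plus strand). Ctla4 overlaps the pseudogene Rpl18-ps1 and Entpd1 overlaps Gm16027, Gm8783 and AC166063.1, all on the gene's own strand, and Cd160 overlaps Pdzk1 on the other strand. Cd200r1 has a close relative, Cd200r4, 16755 bases away, and its counts are uncertain where the counting could not separate family members.

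The Nrp1L/L library held 1301 barcodes and 8978610 UMIs (unique molecular identifiers, by which copies of the same captured transcript are counted together), and the control library 1310 barcodes and 13042802 UMIs. Median depth was 5334 UMIs in Nrp1L/L and 8079.5 in control barcodes, and the libraries shared 3 barcodes. After doublet removal, cells were gated on UMI sums: CD8 T cells had at least 2 UMIs of Cd3d, Cd3e and Cd3g and at least 2 of Cd8a and Cd8b1, and were called cycling with at least 3 UMIs of Mki67, Top2a, Birc5 and Ube2c. Other CD3+ cells met the CD3 gate alone, NK cells had at least 2 UMIs of Ncr1, Klrb1c and Klre1 and at most 1 CD3 UMI, and myeloid cells had at least 10 Lyz2 UMIs. This gave 299 Nrp1L/L and 134 control non-cycling CD8 T cells, 95 and 102 cycling CD8 T cells, 360 and 201 other CD3+ cells, 208 and 89 NK cells, and 200 and 556 myeloid cells, always with Nrp1L/L first. Cycling cells made up 24.1% of Nrp1L/L and 43.2% of control CD8 T cells. The cycling gate is a UMI count, and CD8 T cells had median depths of 6578.5 UMIs in Nrp1L/L and 10846 in control. These shares are thus not at equal depth. Nrp1 itself was at 31.8 CPM (counts of a gene relative to all UMIs of its gate, interval 20.2 to 47.8) in Nrp1L/L and 49.1 CPM (35.5 to 66.1) in control CD3+ cells with Il2ra or Ikzf2, and at 24.3 and 47.4 CPM in non-cycling CD8 T cells. It was at 30.1 and 61.9 CPM in cycling CD8 T cells. Over all other CD3+ cells it was at 44.4 and 45.4 CPM, and in myeloid cells at 57.8 and 51.8 CPM. The reads come from transcript ends and the deleted exons are not given in the labels, so these values do not check the deletion. Foxp3 had 5 UMIs in Nrp1L/L and 3 in control other CD3+ cells and 0 in the CD8, NK and myeloid gates of both libraries, so regulatory T cells could not be gated on it.

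Among the gates, Pdcd1 and Lag3 were highest in T cells, Ctla4 was highest outside the CD8 cells, and Entpd1 and Cd200r1 were shared with myeloid cells. Lag3 was also found in cells outside the gates, as given below. In non-cycling CD8 T cells Pdcd1 stood at 578 CPM in Nrp1L/L and 363 CPM in control, and in NK cells at 6.97 and 25.1 CPM. Lag3 stood at 731 and 293 CPM in non-cycling CD8 T cells and at 33.8 and 41.4 CPM in NK cells. The non-cycling CD8 level of the summed receptors exceeded that of NK cells by 2.75 on the log2 scale in Nrp1L/L (2.57 to 2.92) and by 2.03 in control (1.80 to 2.27). Cd160, which also marks NK cells, was an exception in Nrp1L/L, with 166 CPM in non-cycling CD8 T cells against 173 CPM in NK cells (log2 -0.06, -0.33 to 0.21). In control it was higher in non-cycling CD8 T cells, at 185 against 124 CPM (log2 0.57, 0.20 to 0.96).

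In myeloid cells Pdcd1 was at 0.848% of the CD8 T cell level in Nrp1L/L and 0.893% in control, and Lag3 at 1.02% and 1.27%. Those percentages lie within the 0.691% to 3.38% found there for the T cell genes Cd2, Cd5, Cd6, Lat, Lck and Skap1, genes that myeloid cells should lack, and are read as background. Havcr2 was at 13.2% and 36.3% of its CD8 level in myeloid cells, Entpd1 at 82.1% and 162%, and Cd200r1 at 204% and 214%, all above that range. In NK cells Ctla4 was at 20.8% and 33.8% of its CD8 level and Lag3 at 5.52% and 17.8%, while Cd5 and Cd6, the lowest of the 6 T cell genes there, were at 0% to 1.98%. Ctla4 in NK cells was at 61.7 CPM in Nrp1L/L and 63.6 CPM in control, with 14 of the 43 control UMIs in 1 cell.

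**Figure D1:**
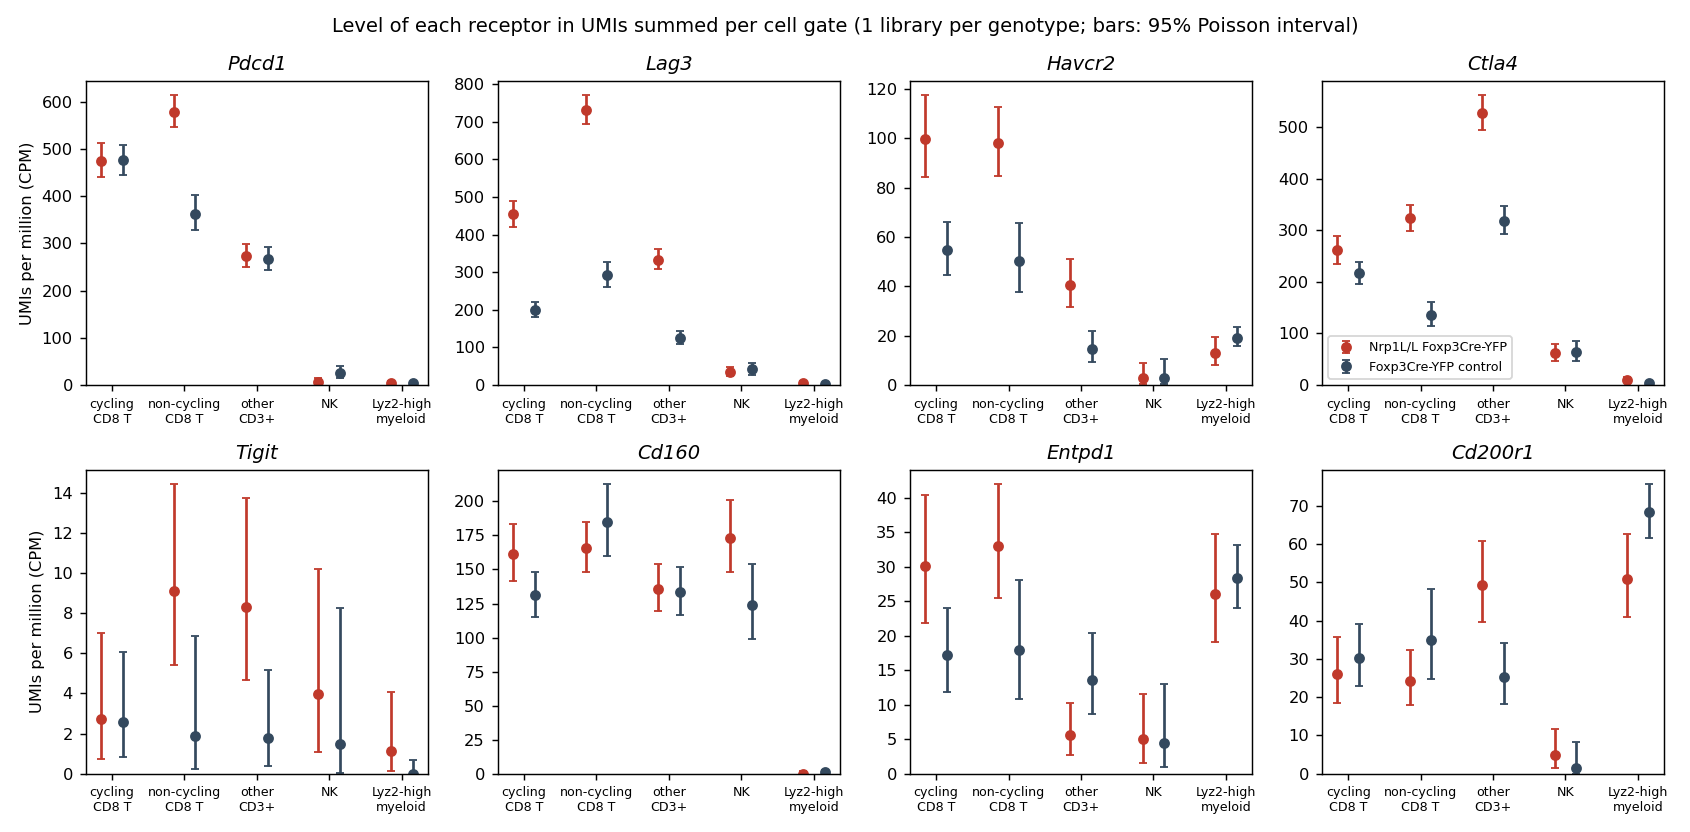
Level of each receptor (vertical axis, CPM) in 5 cell gates of the Nrp1L/L library (red, left) and the control library (dark, right), with 95% Poisson intervals. Pdcd1, Lag3 and Havcr2 peak in CD8 T cells, Ctla4 in other CD3+ cells at 527 and 319 CPM, and Cd200r1 in myeloid cells at 51.0 CPM in Nrp1L/L, close to the other CD3+ level of 49.4 CPM, and at 68.3 CPM in control.

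Within each library the order of levels was read against the intervals. In Nrp1L/L cells Pdcd1 ran from non-cycling CD8 T cells (578 CPM, 545 to 613) through cycling CD8 T cells (475, 440 to 512) and other CD3+ cells (273, 249 to 298) to NK cells (6.97, 2.80 to 14.4) and myeloid cells (4.53, 1.96 to 8.93), and only the lowest neighbours, NK and myeloid, had overlapping intervals. In control cells Pdcd1 was highest in cycling CD8 T cells (475 CPM, 445 to 507), followed by non-cycling CD8 T cells (363, 327 to 401) and other CD3+ cells (267, 243 to 293). Lag3 had the same order in both libraries, non-cycling CD8, cycling CD8, other CD3+, NK and myeloid, at 731, 454, 334, 33.8 and 6.23 CPM in Nrp1L/L and 293, 199, 125, 41.4 and 2.96 CPM in control. Ctla4 followed the order other CD3+, non-cycling CD8, cycling CD8, NK and myeloid in Nrp1L/L, whereas in control the cycling CD8 level of 217 CPM stood above the non-cycling one of 136 CPM. Tigit was close to the limit of detection in every gate, with 0 to 18 UMIs, and its order cannot be read.

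In non-cycling CD8 T cells 6 of the 8 receptors were at least 1.5-fold higher in Nrp1L/L and none was 1.5-fold lower. Over all 7341 genes with at least 20 UMIs in both libraries together, 19.2% were at least 1.5-fold higher and 13.2% lower. The median log2 ratio was 0.92 for the receptors and 0.05 for all genes, and the summed receptors were higher by 0.86 (0.76 to 0.96). Lag3 showed the widest margin among the abundant ones, at 731 CPM (694 to 770) in Nrp1L/L and 293 CPM (261 to 327) in control, a log2 ratio of 1.32 (1.14 to 1.5). Ctla4 was at 323 CPM in Nrp1L/L and 136 CPM in control (1.24, 0.98 to 1.51), and Havcr2 at 97.9 and 50.2 CPM (0.96, 0.52 to 1.43). The intervals of the libraries did not overlap for Lag3, Ctla4, Havcr2 or Pdcd1.

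Pdcd1 was at 578 CPM in Nrp1L/L and 363 CPM in control, a log2 ratio of 0.67 (0.50 to 0.84). Entpd1, the ectonucleotidase gene, was at 33.0 CPM in Nrp1L/L and 18.0 CPM in control (0.87, 0.12 to 1.69), with 65 and 19 UMIs. That ratio was 0.53 with the cycling gate scaled to depth and 0.58 after thinning, both under 1.5-fold. Tigit had 18 UMIs in Nrp1L/L and 2 in control (2.27, 0.21 to 5.42), too few for more than a direction, and after thinning of every cell to 2500 UMIs the ratio was -0.16. The remaining receptors did not separate the libraries: Cd160 was at 166 CPM in Nrp1L/L and 185 CPM in control (-0.16, -0.42 to 0.11), and Cd200r1 at 24.3 and 35.1 CPM (-0.53, -1.17 to 0.13).

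The Lag3 neighbours on chromosome 6 were also at higher levels in Nrp1L/L. Ptms, 1976 bases away, had 416 UMIs in Nrp1L/L and 94 in control (log2 1.24, 0.92 to 1.58), and Cd4, 16140 bases away, had 41 and 2 UMIs. The 41 Cd4 UMIs lay in 3.01% of the Nrp1L/L cells, and the sum of the receptors without cells that held a Cd4 UMI was 0.88, inside the interval given above. Beside Ctla4 on chromosome 1, the costimulatory genes Icos and Cd28 were higher in Nrp1L/L as well, at log2 0.89 (0.58 to 1.21) and 0.94 (0.75 to 1.13). Zbtb20 beside Tigit was also higher, with 30 and 2 UMIs. Med7 beside Havcr2 was at -0.03 (-0.93 to 0.91) and Rnf115 beside Cd160 at 0.15 (-0.20 to 0.50). Cd200r4 was at 2.12 (1.12 to 3.30), whereas Cd200r1 beside it was not higher. Neighbours thus did not all go with their receptor. Markers of other cells also differed in this gate. The dendritic cell list summed to 122 CPM in Nrp1L/L and 323 CPM in control, with 6 of 8 genes found and Xcr1 and Clec9a at 0 in both, the myeloid list to 79.1 and 115 CPM with 8 and 9 of 10 genes found, and the basophil and mast cell list to 43.6 and 2.84 CPM. The basophil and mast cell UMIs lay in 1.67% of the Nrp1L/L and 0.746% of the control cells. The dendritic list includes Ccr7, which T cells also use. The part of these cells' RNA in the receptor ratios was not tested.

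**Figure D2:**
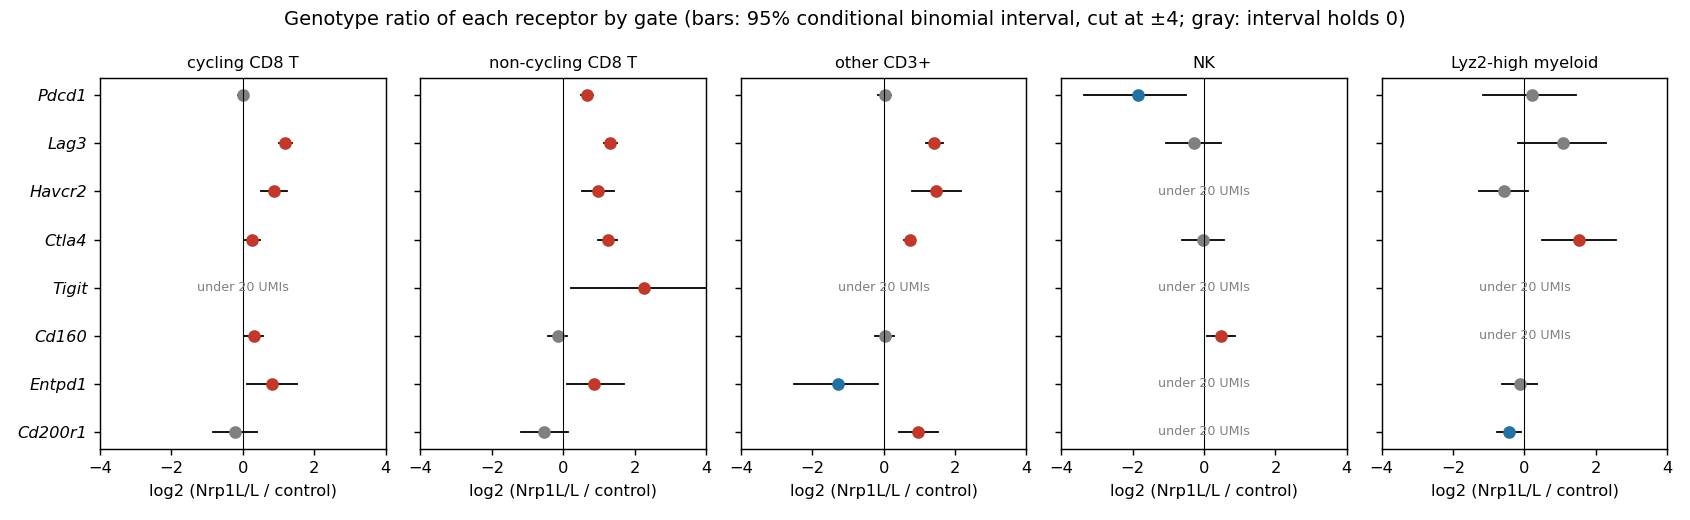
Log2 ratio of Nrp1L/L over control (horizontal axis) for each receptor (rows) in 5 cell gates (panels), with 95% conditional binomial intervals; points are red above 0, blue below 0 and gray where the interval holds 0. Lag3 and Havcr2 are above 0 in all 3 T cell gates, between 0.87 and 1.46, whereas Pdcd1 is above 0 only in non-cycling CD8 T cells and below 0 in NK cells.

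In cycling CD8 T cells 3 of 7 measured receptors were at least 1.5-fold higher in Nrp1L/L and none lower, where 16.5% of all genes were higher and 13.3% lower. The summed receptors were higher by 0.42 on the log2 scale (0.34 to 0.51), and by 0.53 without cells that held a Cd4 UMI. Whether that ratio differs from the one in non-cycling cells was not tested. Lag3 was at 454 CPM in Nrp1L/L and 199 CPM in control (1.19, 1.00 to 1.37), Havcr2 at 99.8 and 54.6 CPM (0.87, 0.50 to 1.25) and Entpd1 at 30.1 and 17.2 CPM (0.81, 0.13 to 1.51). After thinning the Havcr2 ratio was 0.56, under 1.5-fold, and that of Entpd1 2.27. The thinned Entpd1 value rests on 5 Nrp1L/L and 2 control cells with a UMI, too few for more than a direction. Pdcd1 did not separate the libraries, at 475 CPM in both (interval of the log2 ratio -0.15 to 0.14), and Ctla4 was at 261 CPM in Nrp1L/L and 217 CPM in control (0.27, 0.06 to 0.47). The Ctla4 ratio was 0.66 with the CD3 and CD8 gates at 3 UMIs or without cells that held a Cd4 UMI, and 0.61 with the cycling gate scaled to depth, all past 1.5-fold. A single control cell held 57 of the 417 Ctla4 UMIs in that gate. Cd160 was at 161 CPM in Nrp1L/L and 131 CPM in control (0.30, 0.04 to 0.56), and Cd200r1 at 26.0 and 30.2 CPM (-0.22, -0.85 to 0.40). Tigit had 4 UMIs in Nrp1L/L and 5 in control.

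Lag3 was lower in cycling than in non-cycling CD8 T cells of both libraries, at 454 and 731 CPM in Nrp1L/L (log2 -0.69, -0.82 to -0.56) and at 199 and 293 CPM in control (-0.56, -0.78 to -0.34). Over the settings tried the Lag3 ratio lay between -0.79 and -0.52 in Nrp1L/L. In control it lay between -0.80 and -0.04, so the size of the control difference depends on the setting. After thinning, a Lag3 UMI was found in 36 of 102 cycling and 42 of 134 non-cycling control cells. Pdcd1 had opposite signs in the libraries, a difference that was not tested: it was lower in cycling cells of Nrp1L/L, at 475 CPM against 578 CPM in non-cycling cells (-0.28, -0.42 to -0.15), and higher in cycling cells of control, at 475 against 363 CPM (0.39, 0.22 to 0.57). Ctla4 did likewise, with 261 against 323 CPM in Nrp1L/L (-0.31, -0.49 to -0.12) and 217 against 136 CPM in control (0.67, 0.39 to 0.95), but the control value was -0.02 with the cycling gate at 5 UMIs and -0.28 with the gate scaled to each cell's depth, so its direction depends on the gate. Of 8 measured receptors 0 were 1.5-fold higher and 2 (Lag3 and Tigit) lower in cycling cells of Nrp1L/L, where 23.2% of all genes were higher and 17.4% lower. In control 1 of 7 (Ctla4) was higher and 0 lower, where 25.1% of all genes were higher and 15.3% lower. Cycling cells were deeper, with median UMI counts of 13920 against 5891 in Nrp1L/L and 16984 against 6024 in control.

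Among other CD3+ cells, 4 of 7 measured receptors were at least 1.5-fold higher in Nrp1L/L and 1 was lower, where 18% of all genes were higher and 15.4% lower. Lag3 was at 334 CPM in Nrp1L/L and 125 CPM in control (log2 1.42, 1.19 to 1.65), Havcr2 at 40.5 and 14.7 CPM (1.46, 0.79 to 2.18) and Ctla4 at 527 and 319 CPM (0.72, 0.57 to 0.88). The Ctla4 ratio was 0.47 with the CD3 and CD8 gates at 3 UMIs and 0.35 after thinning, both under 1.5-fold. Cd200r1, the CD200 receptor, was at 49.4 CPM in Nrp1L/L and 25.3 CPM in control (0.96, 0.42 to 1.52), and the ratio was 1.57 after thinning to 2500 UMIs. Pdcd1 was at 273 and 267 CPM (0.03, -0.16 to 0.22) and Cd160 at 136 and 133 CPM (0.03, -0.24 to 0.30), neither separating the libraries, although Pdcd1 was at -0.55 after thinning, and Entpd1 was lower in Nrp1L/L, with 10 UMIs against 23 in control (-1.29, -2.52 to -0.16), a ratio of -0.35 with the CD3 and CD8 gates at 1 UMI. Tigit had 15 UMIs in Nrp1L/L and 3 in control. The 3 C1q genes of macrophages summed to 610 UMIs in Nrp1L/L and 81 UMIs in control cells of this gate. The share of cells with a C1q UMI before thinning went the other way, at 15% in Nrp1L/L and 28.4% in control. Of the 610 UMIs, 583 lay outside the cells with Il2ra or Ikzf2. The basophil and mast cell list summed to 73.8 CPM in Nrp1L/L and 2.36 CPM in control, with 3 and 1 of 5 genes found and Ms4a2 and Fcer1a at 0 in both. Of its 133 Nrp1L/L UMIs, 131 lay in 0.8% of the 125 cells with Il2ra or Ikzf2. The dendritic list summed to 66.5 and 304 CPM, with 4 and 8 of 8 genes found. The part of the C1q, basophil and dendritic RNA in the Cd200r1 ratio was not tested. Without CD3+ and NK cells that held 3 or more C1q UMIs the ratio of the summed receptors was 0.63, against 0.61 (0.52 to 0.70) with them.

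Ctla4 reached its highest level in the CD3+ cells with at least 2 UMIs of Il2ra and Ikzf2, genes of regulatory T cells that activated T cells also use. It was at 855 CPM in 125 Nrp1L/L cells and 419 CPM in 92 control cells (log2 1.03, 0.84 to 1.22), and at 307 and 212 CPM in the rest of the gate. A single Nrp1L/L cell held 56 of the 618 UMIs. Havcr2 was at 56.7 CPM in Nrp1L/L and 12.6 CPM in control Il2ra or Ikzf2 cells (2.18, 1.19 to 3.29), from 41 and 11 UMIs of which 16 came from 1 cell. Compared with the rest of the gate, 2 of 6 measured receptors (Ctla4 and Havcr2) were 1.5-fold higher in Il2ra or Ikzf2 cells of Nrp1L/L, where 13.9% of all genes were higher and 18.3% lower, and 2 of 7 (Ctla4 and Lag3) in control, where 17.2% were higher and 14% lower. No receptor was 1.5-fold lower there. After thinning, a Cd160 UMI was found in 23 of the 125 Nrp1L/L and 22 of the 92 control Il2ra or Ikzf2 cells. Before thinning, Cd4 was found in 24.8% and 30.4% of the Il2ra or Ikzf2 cells and in 28.5% and 26.6% of the rest. The kinds of cells in this part of the gate were not told apart.

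In NK cells Cd160 was the most abundant receptor, at 173 CPM in Nrp1L/L and 124 CPM in control (log2 0.48, 0.10 to 0.87). Over the settings tried that ratio lay between 0.04 and 0.58. After thinning, 40 of 208 Nrp1L/L and 22 of 89 control NK cells held a Cd160 UMI, so the difference depends on the setting. None of 4 measured receptors was 1.5-fold higher in Nrp1L/L and 1 was lower, where 23.3% of all genes were higher and 12.8% lower. That 1 was Pdcd1, with 7 UMIs in 7 of 208 Nrp1L/L cells and 17 UMIs in 5 of 89 control cells (-1.85, -3.36 to -0.51), and 8 of the 17 came from 1 control cell. Ctla4 was at 61.7 CPM in Nrp1L/L and 63.6 CPM in control (-0.04, -0.63 to 0.55) and Lag3 at 33.8 and 41.4 CPM (-0.29, -1.06 to 0.48). In the few cycling NK cells Ctla4 was at 125 CPM in 11 Nrp1L/L cells and 107 CPM in 10 control cells, against 54.4 and 48.1 CPM in non-cycling NK cells, with 14 of the 19 control UMIs in 1 cell. Havcr2, Tigit, Entpd1 and Cd200r1 had at most 5 UMIs in either library. The summed receptors of NK cells were at 0.14 (-0.13 to 0.42), and at -0.01 without cells that held 3 or more C1q UMIs, an alternative chosen after the data were seen.

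In myeloid cells the receptors present were Cd200r1, Entpd1 and Havcr2. Cd200r1 was lower in Nrp1L/L, at 51.0 CPM against 68.3 CPM in control (log2 -0.42, -0.77 to -0.09) and -1.12 after thinning to 2500 UMIs, with 18.0% of Nrp1L/L and 28.2% of control cells holding a UMI. In cells with fewer than 3 UMIs of the macrophage genes C1qa, C1qb and C1qc it was at 44.9 CPM in Nrp1L/L and 78.2 CPM in control (-0.80, -1.32 to -0.31), and in cells with 3 or more at 58.2 and 61.5 CPM (-0.08, -0.57 to 0.39). Whether these ratios differ was not tested. Entpd1 was at 26.1 and 28.3 CPM (-0.12, -0.63 to 0.36) over all myeloid cells, at 45.8 and 30.9 CPM in C1q cells, and at 9.40 and 24.6 CPM in the others (-1.39, -2.59 to -0.36). C1q cells made up 80 of 200 Nrp1L/L and 279 of 556 control myeloid cells. Havcr2 was at 13 CPM in Nrp1L/L and 19.3 CPM in control (-0.56, -1.28 to 0.10).

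By the 1.5-fold rule 2 of 6 measured receptors, Ctla4 and Lag3, were higher in Nrp1L/L myeloid cells and none lower, where 13.5% of all genes were higher and 20.7% lower. Ctla4 had 17 UMIs in Nrp1L/L and 18 in control (1.53, 0.49 to 2.57) and was at -0.33 when every cell was thinned to 2500 UMIs. Lag3 had 11 and 16 UMIs (1.07, -0.18 to 2.27) and was at -1.11 after the same thinning. Both were at 1.02% to 3.25% of the CD8 T cell level, and all 6 T cell genes named above were higher in Nrp1L/L than in control myeloid cells too, among them Cd2 at 17.0 and 4.07 CPM and Lck at 12.5 and 5.37 CPM, so no expression by myeloid cells is read from these counts. Cd160 had 0 UMIs in 1764851 of Nrp1L/L, which allows up to 3 counts or 1.70 CPM, and 8 UMIs in control.

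Cells outside all gates held receptors too, in small groups that were defined after their levels had been seen. Plasmacytoid dendritic cells, in which LAG-3 is a known surface receptor, had Lag3 at 438 CPM (335 to 563) in 17 Nrp1L/L cells and 314 CPM (260 to 375) in 36 control cells, and at this depth 82.4% and 66.7% of them held a UMI. In control that level was close to the 293 CPM of non-cycling CD8 T cells, in Nrp1L/L it was below their 731 CPM, and Pdcd1 had 1 and 5 UMIs in the plasmacytoid cells. Cells with basophil or mast cell genes carried Cd200r1 at 309 CPM (203 to 449) in 20 Nrp1L/L cells, against 2 control cells with 1 UMI.

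After thinning of each cell to 2500 UMIs, which lost no cell and makes depths equal, non-cycling CD8 T cells held a mean of 1.99 of the 8 receptors in Nrp1L/L (SD over cells 1.33, 299 cells) and 1.41 in control (SD 1.23, 134 cells). Cycling CD8 T cells held 2.25 and 1.85, other CD3+ cells 1.12 in both libraries, NK cells 0.38 and 0.438, and myeloid cells 0.160 and 0.268. Before thinning the non-cycling CD8 means were 2.83 and 2.31. At least 3 receptors were found in 35.8% of Nrp1L/L and 22.4% of control non-cycling CD8 T cells, in 37.9% and 25.5% of cycling ones, and in 0.481% and 0% of NK cells. None was found in 17.1% and 31.3% of non-cycling CD8 T cells and in 1.05% and 11.8% of cycling ones.

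The thinned shares by gene show which receptors carry this. In non-cycling CD8 T cells a Lag3 UMI was found in 59.2% of Nrp1L/L and 31.3% of control cells, a Pdcd1 UMI in 54.2% and 43.3%, and a Ctla4 UMI in 38.1% and 22.4%. For Cd160 the shares were 23.1% and 26.1%, for Havcr2 15.1% and 7.46%, and for Entpd1 and Cd200r1 between 4.35% and 5.22%. Background in myeloid cells, thinned to the same depth and with medians of 8292 and 8581 UMIs before it, was 2% and 0.719% for Pdcd1 and 0.5% and 0.899% for Lag3.

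**Figure D3:**
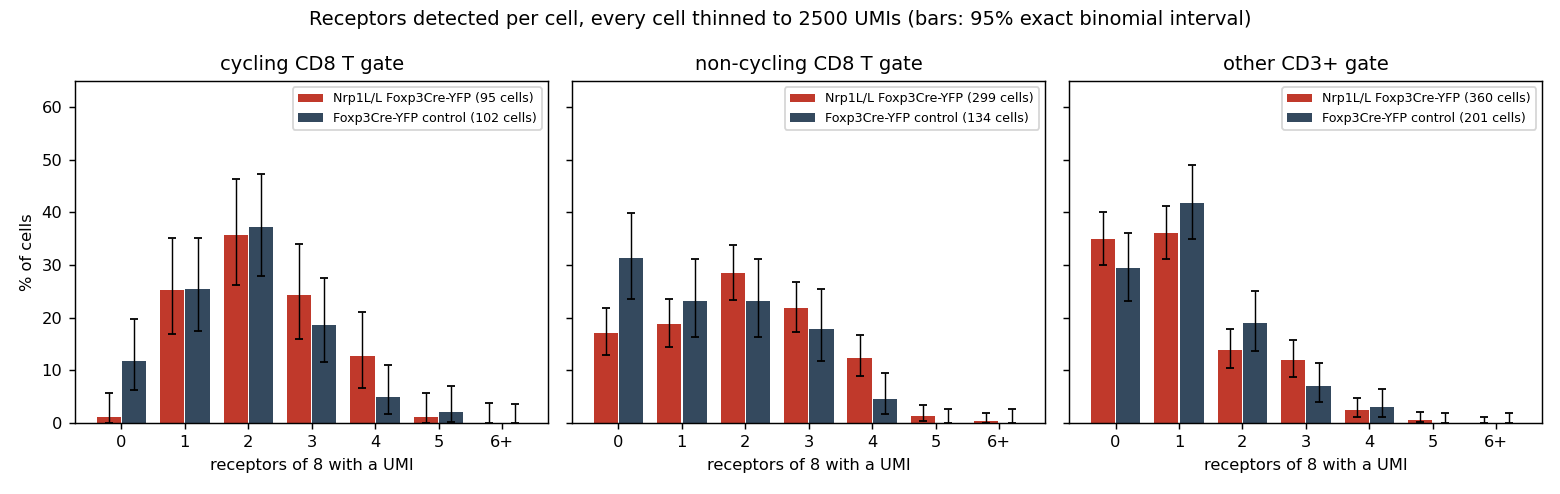
Share of cells (vertical axis, %) by the number of the 8 receptors with at least 1 UMI (horizontal axis) in 3 T cell gates, Nrp1L/L in red on the left and control dark on the right, after thinning to 2500 UMIs, with 95% exact binomial intervals. Non-cycling CD8 T cells with no receptor make up 17.1% in Nrp1L/L and 31.3% in control.

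Pairs of receptors met in the same non-cycling CD8 T cells at counts above the product of their shares. Pdcd1 and Lag3 were found together in 122 of 299 Nrp1L/L cells, against 95.9 from the product, a ratio of 1.27 (1.10 to 1.45), and in 25 of 134 control cells, against 18.2, a ratio of 1.38 (0.918 to 1.94). Lag3 was found in 75.3% of Nrp1L/L cells with Pdcd1 and 40.1% of those without it, and in 43.1% and 22.4% in control. Every pair with a product of at least 5 cells was above 1, 14 of 14 in Nrp1L/L (1.03 to 1.43) and 6 of 6 in control (1.02 to 1.69). Pdcd1 with Ctla4 had the highest control ratio, with 22 cells against 12.99, while pairs with Cd160 stayed nearest to 1 in both libraries, for example 1.03 for Lag3 and Cd160 in Nrp1L/L and 1.02 for Ctla4 and Cd160 in control. The intervals given for pair ratios carry the counting error of the cells with both genes and hold the product fixed. They do not measure the whole error of a ratio. Those of most single pairs reached below 1, which does not decide whether a pair departs from its product.

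In cycling CD8 T cells 4 of 9 pairs in Nrp1L/L and 6 of 9 in control were above 1, with medians of 0.972 and 1.12. Pdcd1 and Lag3 were at 1.17 (0.882 to 1.48) in Nrp1L/L and 1.12 (0.758 to 1.56) in control. The lowest pair in Nrp1L/L was Pdcd1 with Cd160, with 10 cells against 13.8 from the product.

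**Figure D4:**
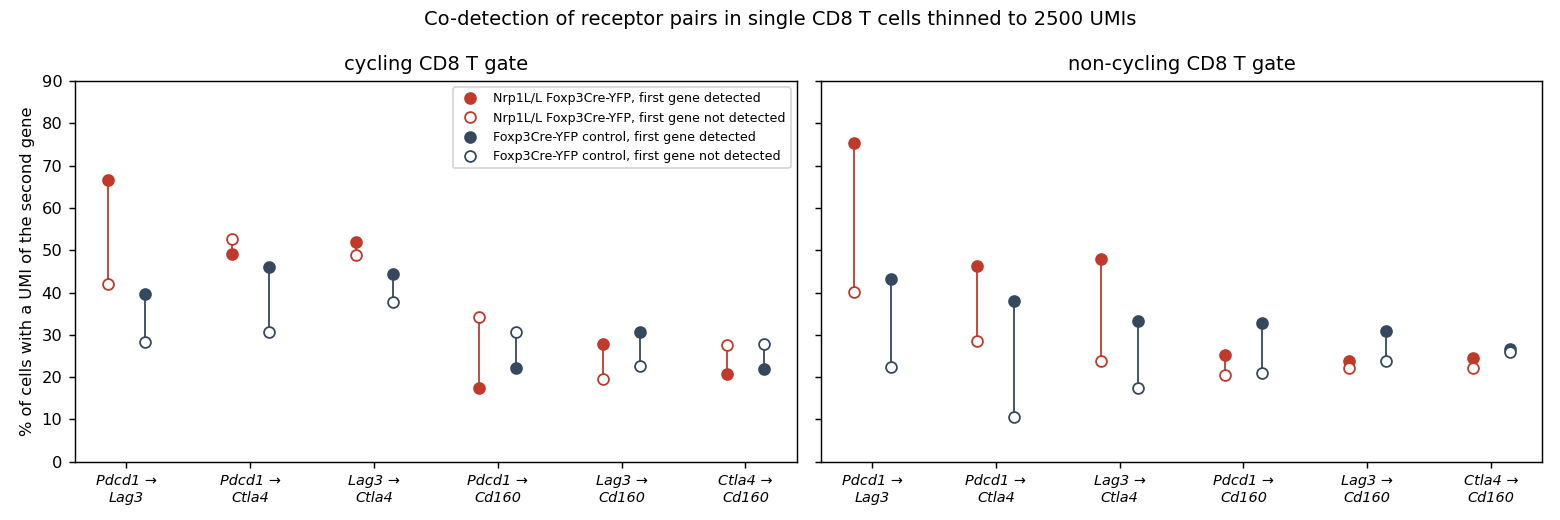
Share of CD8 T cells with a UMI of the second gene of a pair (vertical axis, %), among cells with a UMI of the first gene (filled) and without one (open), for Nrp1L/L (red, left) and control (dark, right), after thinning to 2500 UMIs. In non-cycling cells Lag3 is found in 75.3% of Nrp1L/L cells with Pdcd1 and 40.1% of those without, and in 43.1% of control cells with Pdcd1 and 22.4% of those without.

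In other CD3+ cells Cd160 was apart from the other receptors. Cd160 and Ctla4 were found together in 4 of 360 Nrp1L/L cells, against 19.98 from the product (ratio 0.2), and in 1 of 201 control cells, against 12.9 (ratio 0.0773). Cd160 and Pdcd1 met in 3 Nrp1L/L cells against 15.2 and in 2 control cells against 12.9. By contrast, Pdcd1 and Lag3 were at ratios of 2.09 and 1.80, Lag3 and Ctla4 at 1.88 and 1.98, and Pdcd1 and Ctla4 at 1.69 and 1.67, in Nrp1L/L and control. Few cells of the gate thus held Cd160 together with Ctla4 or Pdcd1.

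A comparison chosen after those values had been seen set cells with a Cd160 UMI beside the rest of the gate. A UMI of the NK genes Ncr1, Klrb1c or Klre1 was found in 41.9% of 62 Nrp1L/L cells with Cd160 (29.5% to 55.2%) and 15.1% of 298 without it (11.2% to 19.7%), and in 37.5% of 40 (22.7% to 54.2%) and 19.3% of 161 (13.5% to 26.2%) in control. The signalling adaptors Tyrobp and Fcer1g, at home in NK and myeloid cells, were found in 77.4% of Nrp1L/L cells with Cd160 and 37.2% without, and in 92.5% and 48.4% in control. Cd4 was found in 1.61% with Cd160 and 24.5% without in Nrp1L/L, and in 5% and 14.3% in control. Il2ra or Ikzf2 was found in 43.5% with Cd160 and 33.9% without in Nrp1L/L, and in 50% and 35.4% in control.

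Cells with more receptors differed from cells with none in genes outside the receptor set, here in non-cycling CD8 T cells with 0, 1 or 2, and 3 or more receptors after thinning. In Nrp1L/L the groups held 51, 141 and 107 cells with median depths of 4585, 5900 and 6495 UMIs, and in control 42, 62 and 30 cells with 5003.5, 7120 and 7726 UMIs. Klf2, a factor that holds T cells quiescent, was at 1766, 402 and 119 CPM over the groups in Nrp1L/L and at 1351, 361 and 140 CPM in control. Il7r, the interleukin-7 receptor, was at 169, 32.7 and 2.48 CPM in Nrp1L/L and at 73.9, 14.7 and 7.17 CPM in control. Both genes were lowest in the cells with 3 or more receptors of either library.

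Tox, a factor of exhausted CD8 T cells, had the opposite order, at 60.4, 138 and 199 CPM in Nrp1L/L and 34.8, 161 and 251 CPM in control. Gzmb, a cytotoxic granule protease, was at 1070, 3933 and 4881 CPM in Nrp1L/L and 339, 1826 and 1945 CPM in control. Ifng, the gene of interferon-γ, was at 96.6, 604 and 792 CPM in Nrp1L/L, and at 39.1, 286 and 215 CPM in control, where the highest groups had overlapping intervals. Among cells with 3 or more receptors Ifng was at 792 CPM (732 to 856) in Nrp1L/L and 215 CPM (164 to 277) in control. These groups were not alike in receptor number. Of the 107 Nrp1L/L cells 37 held 4 receptors, 4 held 5 and 1 held 6 or more, against 6, 0 and 0 of the 30 control cells. Tnfrsf9, which encodes the costimulatory receptor 4-1BB, differed the other way from Ifng, at 506 CPM in Nrp1L/L and 752 CPM in control cells with 3 or more receptors. Tcf7, a factor of memory and stem-like T cells, was at 181, 86.1 and 7.45 CPM in Nrp1L/L and at 169, 18.3 and 53.7 CPM in control.

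**Figure D5:**
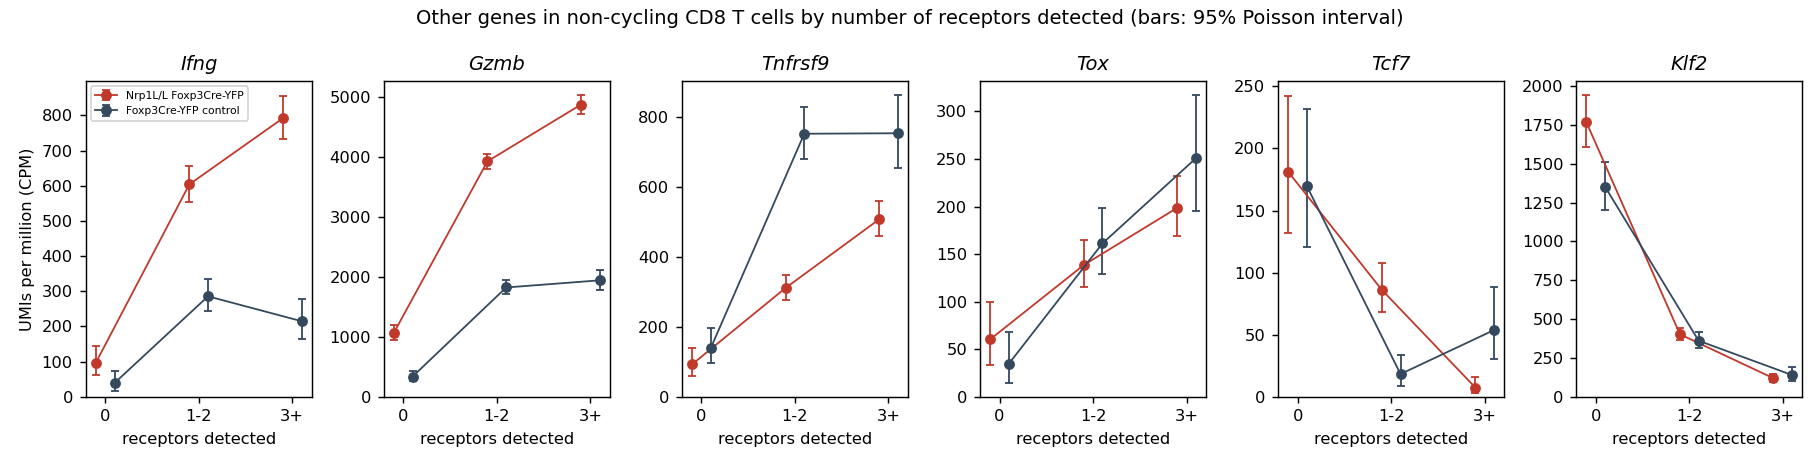
Levels of 6 other genes (vertical axes, CPM, each panel with its own scale from 0) in non-cycling CD8 T cells with 0, 1 or 2, and 3 or more receptors detected, for Nrp1L/L (red) and control (dark), with 95% Poisson intervals. Klf2 is lowest and Tox highest in cells with 3 or more receptors of both libraries, and Ifng and Gzmb are higher in Nrp1L/L in each group.

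Gene lists around the receptors were compared between the libraries in non-cycling CD8 T cells, over genes with at least 20 UMIs and against the same 19.2% higher and 13.2% lower of all genes. Effector genes had the widest shift, with 9 of 12 at least 1.5-fold higher in Nrp1L/L, 1 lower and a median log2 ratio of 1.36. The chemokine genes Ccl5 and Ccl4 were higher by 1.64 and 1.54 and Ifng by 1.53 (617 CPM in Nrp1L/L and 213 CPM in control). Xcl1, a chemokine for cross-presenting dendritic cells, was lower, at 96.4 CPM in Nrp1L/L and 607 CPM in control (-2.66), and Prf1 was at 64.9 and 64.4 CPM. In cycling CD8 T cells 10 of 12 effector genes were higher and 1 lower, with a median of 1.36, where 16.5% of all genes were higher and 13.3% lower.

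Of 16 transcription factors of exhaustion and effector states, 5 were higher and 1 lower, with a median of 0.27. Nr4a3, induced by antigen receptor signals, had 39 UMIs in Nrp1L/L and 2 in control (3.38, 1.43 to 6.48), Irf4 had 44 and 9, and Tbx21 142 and 32. Tox was at 153 CPM in Nrp1L/L and 157 CPM in control (-0.04, -0.32 to 0.24), so it did not follow the receptors between the libraries. Ikzf2 was the member that was lower, at 46.2 and 88.1 CPM (-0.93). Ccr7, the lymph node homing receptor, was at 96.4 CPM in Nrp1L/L and 222 CPM in control (-1.20).

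Costimulatory receptors were divided: 3 of 11 were higher and 2 lower, with a median of 0.48. Cd28, the rival of CTLA-4 for B7 ligands, was at 542 CPM in Nrp1L/L and 282 CPM in control (0.94, 0.75 to 1.13). Tnfrsf4 was at 157 and 439 CPM (-1.49, -1.70 to -1.27) and Tnfrsf9 at 363 and 618 CPM (-0.77, -0.92 to -0.61), so these receptors of the TNF family were lower in Nrp1L/L. Of 12 other inhibitory receptors 4 were higher and 2 lower, with a median of -0.42. Klrc1, which encodes NKG2A, was at 593 CPM in Nrp1L/L and 295 CPM in control (1.01), while Lair1 and Cd72 had 10 and 20 UMIs in Nrp1L/L and 25 and 34 in control (-2.22 and -1.67).

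Signalling adaptors and phosphatases gave 2 of 17 higher and 1 lower (median 0.16). Cblb, a ubiquitin ligase that restrains T cell activation, was at 33.0 CPM in Nrp1L/L and 68.2 CPM in control (-1.05, -1.56 to -0.55). The receptors' ligands gave 3 of 12 higher and 3 lower in non-cycling CD8 T cells (median 0.03), the lower ones being the MHC class II genes H2-Ab1, H2-Eb1 and H2-Aa. The same 3 genes were lower in other CD3+ cells (-3.54 to -2.66) and in NK cells (-5.28 to -4.37). The dendritic list was lower in the non-cycling CD8 gate too, at 122 CPM in Nrp1L/L and 323 CPM in control. The part of RNA from other cells in these class II ratios was not tested. In myeloid cells, which present many of the ligands, 3 of 14 were higher and 3 lower (median 0.25), where 13.5% of all genes were higher and 20.7% lower. Pdcd1lg2, which encodes PD-L2, was at 37.4 CPM in Nrp1L/L and 8.51 CPM in control (2.13, 1.57 to 2.71), Cd274, which encodes PD-L1, at 111 and 64.4 CPM (0.79, 0.53 to 1.04), and Lgals9, the galectin-9 gene, at 248 and 171 CPM (0.53). The dendritic list summed to 286 CPM in Nrp1L/L and 87.9 CPM in control myeloid cells, with 7 and 8 of 8 genes found, and its part in these ratios was not tested. Pvr, a TIGIT ligand, was lower, at 19.8 CPM in Nrp1L/L and 34.6 CPM in control (-0.80).

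Over 12 sums of UMIs (6 gates in 2 libraries), the genes whose levels on the log2(CPM + 10) scale most resembled Pdcd1 among 8331 genes were Cd3e, Cd3d and Cxcr6, with Pearson r of 0.979 to 0.975. For Lag3 they were Ubash3a, Crbn and Tox (0.979 to 0.962), for Ctla4 Ap1g2, Ubxn11 and Sla (0.972 to 0.962), and for Cd160 Ptprcap, Gimap7 and Eef1a1 (0.989 to 0.988). For Havcr2 they were Atxn1, Smpd1 and Vmp1 (0.901 to 0.897), for Entpd1 Bcl2a1c, S100a6 and Ctnnbip1 (0.845 to 0.835), and for Cd200r1 Piezo1, Gadd45b and Nrp1 (0.913 to 0.890). Tigit, with 54 UMIs, came nearest to Paqr7, 4932438A13Rik and Gbp6 (0.928 to 0.894). Between receptors, Lag3 and Pdcd1 were closest (0.935), followed by Ctla4 and Lag3 (0.897), and Cd160 and Cd200r1 lay farthest apart (-0.498). The sums of a library share its cells and depth, so these values describe the 12 sums only. Genes that define the gates were left among the 8331. Cd3d and Cd3e define the CD3 gate, so their likeness to Pdcd1 was largely set by the gating.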

How the data were processed

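Single-cell RNA was measured in 2 libraries of sorted CD45+ tumour cells. The deposited values are UMI counts per gene and barcode, made with Cell Ranger 1.3 on mm10, per the submitters' processing notes, and all barcodes held at least 2659 UMIs. The cDNA was amplified over 14 cycles, per the labels. Doublets were scored per library with Scrublet in scanpy 1.11.5 (expected rate 2%). Its own calls were used where they were 0.5% to 10% of barcodes, otherwise the top 2% were left out, which removed 26 Nrp1L/L and 8 control barcodes. Cells in 2 of the CD3, NK and myeloid gates (14 Nrp1L/L, 21 control) were left out, and 99 and 199 cells met no gate. UMIs were summed per gate and scaled to CPM. Work was done in Python 3.11.15 with numpy 2.4.6 and scipy 1.17.1, and R 4.3.3. Levels carry 95% Poisson, ratios conditional binomial and shares Clopper-Pearson intervals. Ratio calls needed at least 20 UMIs over both groups and a 1.5-fold difference. Alternatives covered gates, doublets, thinning and scaling (edgeR 4.0.16 for TMM). The ratio and thinning steps were checked on simulated counts. All receptors are named, as are the 3 highest and 3 lowest genes of each list, and the text quotes from these and adds others chosen after their values were seen. A split of CD8 T cells by memory genes is not reported here. Receptors, gates and lists were chosen with earlier results of these data known.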

Additional observations from a re-analysis of the deposited data

Results flagged for a closer look

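Several receptors had effects of opposite direction in different libraries or gates, each with a counting interval that leaves out 0. None of these differences between effects was tested, since each effect rests on 1 library per genotype. Pdcd1 in cycling over non-cycling CD8 T cells was at log2 -0.28 (-0.42 to -0.15) in Nrp1L/L and 0.39 (0.22 to 0.57) in control. Ctla4 in the same comparison was at -0.31 (-0.49 to -0.12) in Nrp1L/L and 0.67 (0.39 to 0.95) in control, the value whose direction depends on the cycling gate. Pdcd1 in Nrp1L/L over control was at 0.67 (0.50 to 0.84) in non-cycling CD8 T cells and at -1.85 (-3.36 to -0.51) in NK cells, where 8 of the 17 control UMIs came from 1 cell. Entpd1 in Nrp1L/L over control was at 0.87 (0.12 to 1.69) in non-cycling and 0.81 (0.13 to 1.51) in cycling CD8 T cells and at -1.29 (-2.52 to -0.16) in other CD3+ cells. Over the settings tried, these ratios lay as low as 0.53, as high as 2.27 and as near 0 as -0.35, in that order of gates. The value of 2.27 came after thinning, from 5 Nrp1L/L and 2 control cells with an Entpd1 UMI. Cd200r1 was at 0.96 (0.42 to 1.52) in other CD3+ cells and at -0.42 (-0.77 to -0.09) in myeloid cells, and after thinning at 1.57 and -1.12.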

How the results depend on the processing

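No paired analysis was possible because each genotype has 1 library. Values are log2 ratios of the summed receptors unless a gene is named. In Nrp1L/L over control, non-cycling CD8 T cells gave 0.86, and 0.73 with the cycling gate at 5 UMIs or scaled to depth, 1.00 with every cell thinned to 2500 UMIs and 0.64 without the most abundant receptor. Cycling CD8 T cells gave 0.42, and 0.56 with CD3 and CD8 gates at 1 UMI, 0.67 without the most abundant receptor and 0.53 without cells holding Cd4, a choice made after the data were seen. Other CD3+ cells gave 0.61, and 0.51 with those gates at 3 UMIs and 0.29 after thinning. NK cells gave 0.14, and -0.23 without Cd160, and myeloid cells -0.19, and -0.74 after thinning. In cycling over non-cycling cells, Nrp1L/L gave -0.38, and -0.18 after thinning and -0.22 without the most abundant receptor, and control gave 0.06, and -0.14 and -0.11 with the cycling gate at 5 UMIs and scaled to depth, 0.45 after thinning and -0.14 without the most abundant receptor, so the control value has no settled direction. In non-cycling CD8 T cells over NK cells, Nrp1L/L gave 2.75, and 3.04 after thinning and 2.25 without the most abundant receptor, and control gave 2.03, and 1.59 without it.

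Mean receptors per cell depend on depth: non-cycling CD8 T cells held 1.26 in Nrp1L/L and 0.754 in control at 1000 UMIs, and 2.83 and 2.31 unthinned, and cycling ones 1.32 and 0.971, and 4.14 and 3.85. Thinning turned Tigit in non-cycling CD8 T cells (-0.16) and Ctla4 in myeloid cells (-0.33), both under 20 UMIs a library. Lag3 in myeloid cells, whose interval held 0, was at -1.11 after thinning. Ctla4 in cycling over non-cycling control cells turned with the cycling gate at 5 UMIs (-0.021) and scaled to depth (-0.28). The cause of these moves was not tested. Over its 15 settings, Lag3 in Nrp1L/L over control stayed between 1.19 and 1.67 in non-cycling CD8 T cells, Pdcd1 between 0.59 and 0.87, Havcr2 between 0.86 and 1.49 and Ctla4 between 0.62 and 1.42. Receptors under about 20 UMIs in a gate, Tigit throughout, are limited by depth. In all, 173 values of sums and means stayed inside the counting interval of the main value and 28 left it. Of single genes and list counts, 868 stayed, 49 moved and 4, the Tigit and Ctla4 values above, turned. A list count has no interval and was taken to stay if it was within 1.5-fold. A turn was counted only for ratios whose main interval left out 0. TMM and median-of-ratios scaling shifted the log2 ratios by at most 0.097. With 1 library per genotype, no library could be left out in turn.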
